A study of Mus musculus with 6 samples.

Results

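Complex I (NADH:ubiquinone oxidoreductase) is the first enzyme of the mitochondrial respiratory chain. The genes described here are the protein-coding genes of the nuclear genome whose symbol starts with Nduf, 46 of the 25419 genes in the table of the cochlear transcriptome. Of these, 38 carry the symbol of a subunit (Ndufa, Ndufab, Ndufb, Ndufc, Ndufs or Ndufv) and 8 that of an assembly factor (Ndufaf). Their level was taken as FPKM (fragments per kilobase of transcript, scaled to the sequencing depth), summed over the transcripts of a gene. All 46 protein-coding Nduf genes of the GENCODE M21 annotation were in the table, with 96 transcripts, and all 46 passed the filter on low values (a mean of at least 0.1 FPKM over the 6 samples). The other 5 Nduf genes of the annotation, which are pseudogenes and a long noncoding RNA, were not in the table.

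RNA was sequenced from the cochlea of C57BL/6 mice, an inbred strain that loses hearing early in adult life. The tissue was the dissected basilar membrane by the labels and cochlear tissue in the study's methods. The young group was 1 month old by the labels (4 weeks in the study's methods) and the old group was 12 months old, with 3 samples in each and the tissue of 3 mice mixed in every sample. The strain was the same in both groups, and the labels give neither a genetic change nor a drug for either of them. The spacing of the low FPKM values gave an estimated depth of 12570000 to 15670000 fragments per sample. All p-values measure the spread between pooled samples and not between single mice.

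Complex I passes electrons from NADH to ubiquinone along a chain of iron-sulfur clusters in its peripheral arm and pumps protons through its membrane arm. Its core subunits do the chemistry, and those of the pumps are encoded by mitochondrial DNA. Accessory subunits surround the core, and assembly factors help to build the complex without staying in it. Hair cells and the stria vascularis of the cochlea have a high demand for ATP, which is met in large part by mitochondria.

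In the old cochlea, the RNA of most complex I genes lay within 20% of its young level. Of 46 genes, 3 were downregulated and 0 were upregulated at an adjusted p below 0.05 (limma, Benjamini-Hochberg over 19465 genes), where 3.81% of all genes tested were lower and 5.65% were higher. The downregulated genes were the core subunit Ndufs1, the membrane arm subunit Ndufc1 and the assembly factor Ndufaf1. At an unadjusted p below 0.05, 8 members were lower and 1 was higher, against 13.1% and 14.6% of all genes. In 11 members (23.9%) all old samples lay below all young samples, and in 1 all lay above, against 16.1% and 17.6% of all genes. Among the 7705 genes with a mean of at least 10 FPKM, a level that 44 of the 46 members reached, 5.02% were downregulated and 18.6% had all old samples below all young ones. The log2 change (old minus young) was below 0 in 33 of the 46 genes, with a median of -0.068, and the median of all genes was 0.0088.

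**Figure D1:**
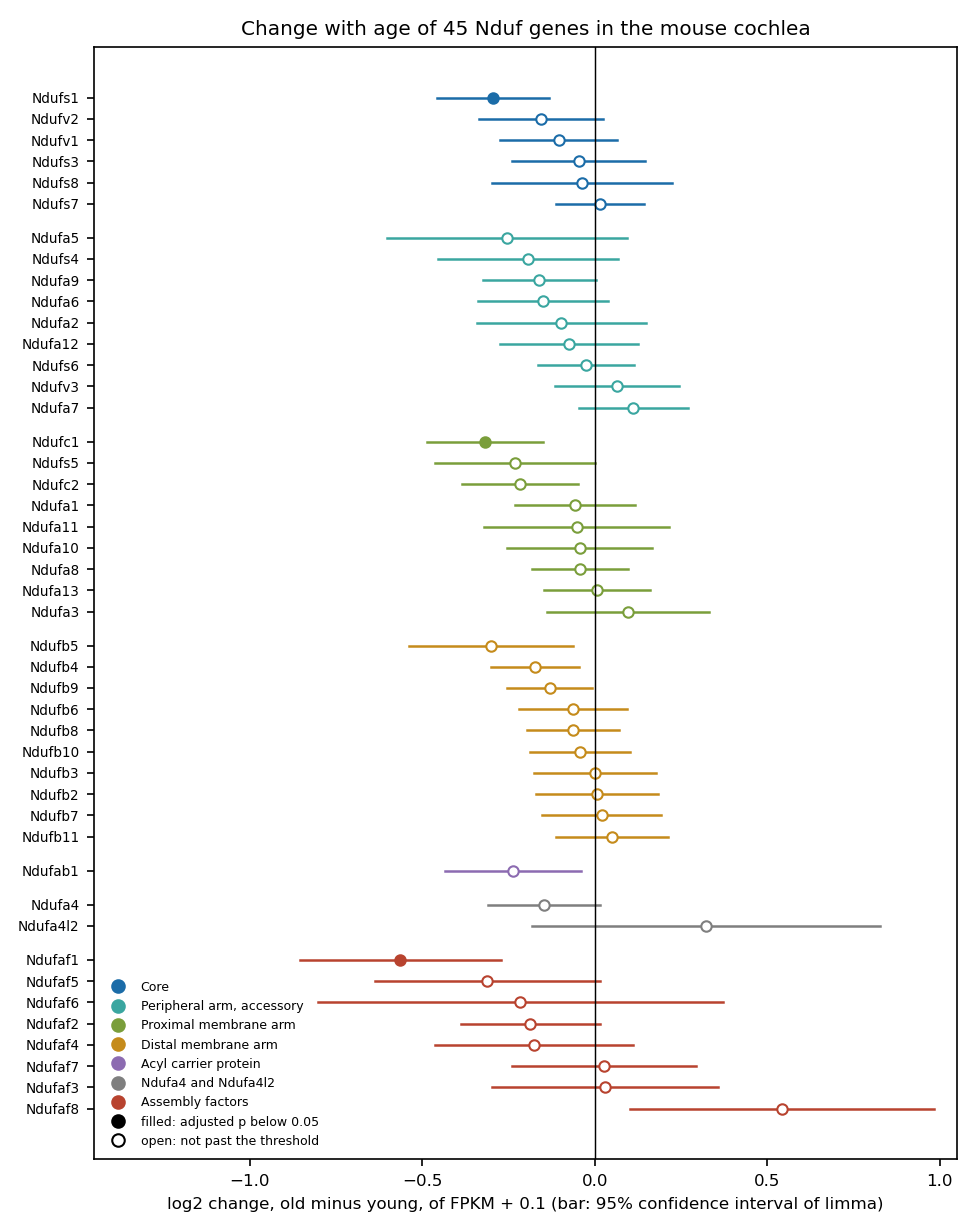
Log2 change of FPKM + 0.1 from young to old (x axis) for 45 of the Nduf genes (y axis), grouped by place in the complex, with 95% confidence intervals from limma and filled points at an adjusted p below 0.05. The 3 filled points (Ndufs1, Ndufc1 and Ndufaf1) lie left of 0, and 32 of the 45 points have a value below 0.

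The 7 core subunits encoded in the nucleus all belong to the peripheral arm. Ndufs1, the largest of them, carries iron-sulfur clusters of the electron path. It was at 96.0, 109 and 98.4 FPKM in young samples 1 to 3 and at 83.8, 80.0 and 83.5 FPKM in old samples 1 to 3. The groups did not overlap, and the level was 18.6% lower in old mice (101 ± 7.17 against 82.4 ± 2.11 FPKM, SD, n = 3). In limma the log2 change was -0.29 with an SE of 0.0698 and an adjusted p of 0.0429. Leaving out any 1 of the 6 samples moved the adjusted p to between 0.0617 and 0.147 and ended the call. The gene (chr1:63143596-63176833, minus strand, GRCm38) shares exon bases with Eef1b2 on the opposite strand, and the strand setting of the counting is not given in the sources used here. Eef1b2 had a log2 change of 0.24 with a limma adjusted p of 0.0920. An overlap with a gene on the opposite strand was present in 17 of the 46 members.

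Ndufs7, which lines the ubiquinone site, was at 129, 129 and 123 FPKM in the young and 129, 129 and 127 FPKM in the old samples, and the groups overlapped. Its log2 change was 0.016, with a 95% interval from -0.11 to 0.14.

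Ndufv1, which binds NADH and the flavin, was at 118, 125 and 112 FPKM in the young group and at 103, 112 and 117 FPKM in the old group. Its partner Ndufv2 was at 211, 193 and 184 FPKM in the young group and at 165, 187 and 175 FPKM in the old group. Both pairs of groups overlapped, with log2 changes of -0.10 and -0.16 and adjusted p of 0.399 and 0.235 in limma. Ndufs3 was at 117, 118 and 114 FPKM in the young and at 100.1, 120 and 120 FPKM in the old samples, so that old sample 1 lay below the young range and the other old samples above it. Ndufs8, another iron-sulfur protein, was at 66.0, 54.7 and 49.0 FPKM in the young and at 54.3, 52.2 and 57.8 FPKM in the old samples, all of which lay inside the young range. The median log2 change of the 7 core subunits was -0.10, with 6 of 7 below 0.

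None of the 9 accessory subunits of the peripheral arm passed the test in limma, and 0 of 9 did at an unadjusted p below 0.05. Their median log2 change was -0.097 and their mean levels ran from 38.4 to 290.0 FPKM. Ndufa7, the most abundant, was at 280, 273 and 283 FPKM in the young and at 279, 307 and 319 FPKM in the old samples. Old sample 1 lay inside the young range and the other old samples above it (log2 change 0.11, limma adjusted p = 0.326). Ndufs4, the least abundant and a subunit whose loss in mice causes an encephalopathy, was at 44.3, 42.9 and 35.7 FPKM in the young and at 39.9, 32.7 and 34.7 FPKM in the old samples. The largest negative value of the class was that of Ndufa5, at 134, 174 and 124 FPKM in the young and 140.0, 114 and 107 FPKM in the old samples. Its log2 change of -0.25 had a 95% interval from -0.60 to 0.095, the widest of the class. A transcript of 315 nt held 40.9% of the FPKM of Ndufa5. The other transcript, of 875 nt, had an interval from -0.47 to 0.048.

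Among the 9 accessory subunits of the proximal membrane arm, Ndufc1 was downregulated. It was at 52.5, 51.1 and 47.3 FPKM in the young and at 41.1, 41.6 and 38.4 FPKM in the old samples. The groups did not overlap, and the level was 19.8% lower in old mice (50.3 ± 2.71 against 40.4 ± 1.73 FPKM, SD, n = 3). The log2 change in limma was -0.32, its SE 0.0718 and its adjusted p 0.0389, and 1 transcript of 1249 nt held 99.7% of the FPKM of the gene. The call was kept without young sample 3 (limma adjusted p = 0.0359) and was lost without any 1 of the other 5 samples, with adjusted p up to 0.111. Ndufc1 (chr3:51404677-51408988, minus strand) shares no exon bases with another annotated gene.

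Ndufc2, which sits beside Ndufc1, was at 274, 262 and 264 FPKM in the young and at 241, 209 and 239 FPKM in the old samples. All old samples lay below all young ones, and the log2 change of -0.22 did not pass the adjusted threshold (limma adjusted p = 0.101). Ndufa1, the most abundant complex I subunit, was at 478, 484 and 452 FPKM in the young and at 489.6, 419 and 455 FPKM in the old samples. Ndufa11, the least abundant of the class, was at 32.4, 26.3 and 28.9 FPKM in the young and at 24.5, 30.1 and 29.9 FPKM in the old samples. In both genes the groups overlapped. Ndufa3 had the largest positive value of the class, at 305, 277 and 284 FPKM in the young and at 273, 302 and 355 FPKM in the old samples, and old sample 3 alone lay above the young range. Of the 9 genes 7 had a log2 change below 0, with a median of -0.052.

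The 10 subunits of the distal membrane arm included 0 genes past the adjusted threshold in limma. At an unadjusted p below 0.05, 3 of the 10 were lower, against 13.1% of all genes. These 3 were Ndufb4, Ndufb5 and Ndufb9, in each of which all old samples lay below all young ones. Ndufb5 was at 241, 228 and 211 FPKM in the young and at 163, 182 and 210.1 FPKM in the old samples, so that the gap between the groups was about 1 FPKM. Its log2 change was -0.30 (limma adjusted p = 0.106). Ndufb9, the most abundant of the class, was at 297, 306 and 298 FPKM in the young and at 277, 275 and 271 FPKM in the old samples, a difference of 8.67% (limma adjusted p = 0.159). Ndufb9 shares exon bases with an annotated gene on the same strand, as do Ndufb2 and Ndufb8. No values are listed for the partner genes of Ndufb9 and Ndufb2, and the partner of Ndufb8 is listed at 0 in all 6 samples. Ndufb3, the least abundant, was at 118, 102 and 103 FPKM in the young and at 103, 111 and 108 FPKM in the old samples, with a 95% interval of the log2 change from -0.17 to 0.18. Ndufb11 had the largest positive value, at 131, 117 and 125 FPKM in the young and 129, 122 and 135 FPKM in the old samples, with overlapping groups.

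Ndufab1, the mitochondrial acyl carrier protein, also serves in fatty acid synthesis and was the least abundant of the 36 complex I subunits. It was at 24.0, 23.6 and 21.7 FPKM in the young and at 18.7, 21.0 and 19.1 FPKM in the old samples. The groups did not overlap (log2 change -0.24, limma adjusted p = 0.120). Ndufa4, which is now counted as a subunit of complex IV, was the most abundant Nduf gene, at 651, 609 and 578 FPKM in the young and at 552, 532 and 575 FPKM in the old samples. Its groups did not overlap either, although young sample 3 and old sample 3 differed by under 3 FPKM (log2 change -0.15, limma adjusted p = 0.217). Ndufa4l2, a relative of Ndufa4 that is induced in hypoxia, was the least abundant Nduf gene. It was at 2.13, 1.72 and 2.40 FPKM in the young and at 2.15, 3.10 and 2.65 FPKM in the old samples, which corresponds to 15.5 to 31.8 fragments per sample. Its interval of the log2 change ran from -0.18 to 0.83.

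**Figure D2:**
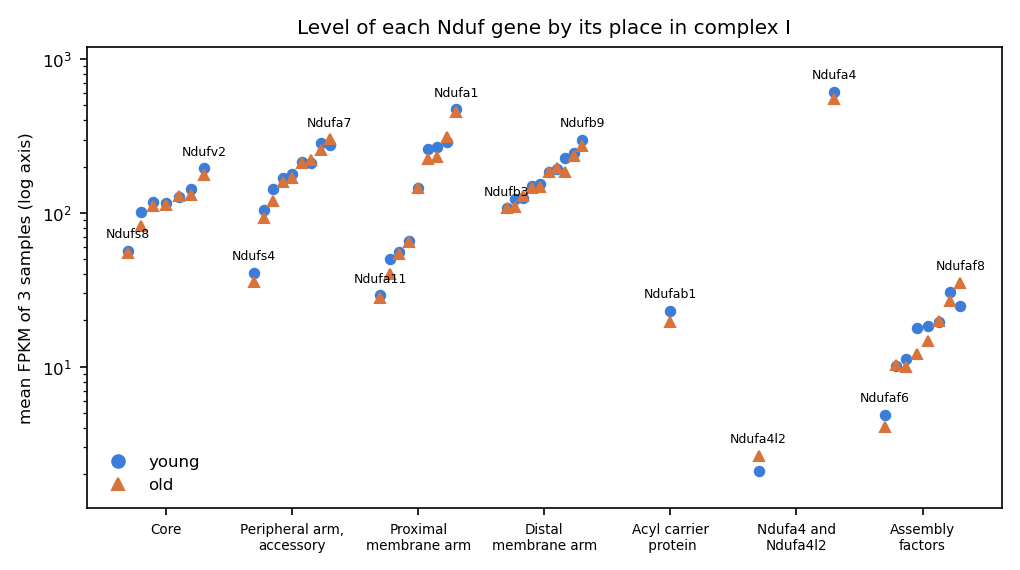
Mean FPKM of 3 young (circles) and 3 old (triangles) samples on a log axis for each Nduf gene, with the genes of each class in order of level along the x axis. The points of complex I subunits span 19.6 to 471 FPKM, Ndufa4 lies above them and the points of 8 assembly factors span 4.05 to 35.3 FPKM.

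The levels of the subunits were thus far from equal: over the 6 samples the mean FPKM of the 36 complex I subunits spanned 21.7-fold. FPKM divides by length and the fragment size was subtracted from the length in this table (280 to 300 nt), so that the levels of short transcripts rest on a short counted stretch. The most abundant transcript was shorter than 700 nt in 18 of the 46 genes. The summed level of the 36 subunits was 5752 to 6095 FPKM in young samples and 5517 to 5843 FPKM in old samples, and these ranges overlapped.

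The 8 assembly factors had mean levels over the 6 samples of 4.45 to 30.0 FPKM, a range that also held the subunits Ndufa11 and Ndufab1. Ndufaf1 acts with Ecsit, Acad9 and Tmem126b in building the proximal membrane arm. It was at 16.0, 19.8 and 17.9 FPKM in the young and at 11.2, 11.2 and 13.9 FPKM in the old samples. The groups did not overlap, and the level was 32.4% lower in old mice (17.9 ± 1.87 against 12.1 ± 1.59 FPKM, SD, n = 3), and limma gave a log2 change of -0.56 with an SE of 0.125 and an adjusted p of 0.0371. These values rest on 155 to 302 fragments per sample. Without any 1 of the 6 samples the adjusted p was between 0.0517 and 0.125, so that the call was lost each time, and the log2 change stayed between -0.67 and -0.49. Ndufaf1 (chr2:119655446-119662827, minus strand) shares no exon bases with another annotated gene.

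Ndufaf8, which stabilizes Ndufaf5, had the only set of old samples that lay above all young samples. It was at 29.3, 17.6 and 27.2 FPKM in the young and at 33.7, 39.3 and 32.8 FPKM in the old samples. Young sample 2 was far below the other young samples and old sample 2 was the highest old sample. The log2 change of 0.54 (SE 0.188) did not pass the adjusted threshold (limma adjusted p = 0.114). Ndufaf5, which hydroxylates an arginine of Ndufs7, was at 19.4, 20.2 and 15.2 FPKM in the young and at 13.0, 16.4 and 14.6 FPKM in the old samples (log2 change -0.31, limma adjusted p = 0.198).

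Ndufaf2, a relative of the subunit Ndufa12 that acts late in assembly, was at 33.3, 28.9 and 29.4 FPKM in the young and at 25.1, 27.2 and 28.0 FPKM in the old samples. All old samples were below all young ones (log2 change -0.19, limma adjusted p = 0.209). Ndufaf3 and Ndufaf4 bind each other early in assembly. Ndufaf3 was at 23.9, 18.7 and 16.2 FPKM in the young and at 18.9, 20.2 and 20.1 FPKM in the old samples, all inside the young range. Ndufaf4 was at 11.4, 10.4 and 11.9 FPKM in the young and at 8.73, 9.92 and 11.3 FPKM in the old samples, and old samples 1 and 2 were below the young range.

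Ndufaf6, also an early factor, was at 3.23, 6.28 and 5.06 FPKM in the young and at 4.75, 3.66 and 3.74 FPKM in the old samples, which is 33.8 to 69.3 fragments. Ndufaf7, a methyltransferase of the mitochondrial matrix, was at 8.81, 11.0 and 10.5 FPKM in the young and at 9.83, 10.3 and 10.7 FPKM in the old samples. In both the groups overlapped. The median log2 change of the 8 assembly factors was -0.18, with 5 below 0 and 3 above 0, and their range from -0.56 to 0.54 was wider than that of the 36 complex I subunits, from -0.32 to 0.11. Their changes were also less precise, with a median SE of 0.132 against 0.0740. Whether assembly factors changed more than subunits was not tested.

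**Figure D3:**
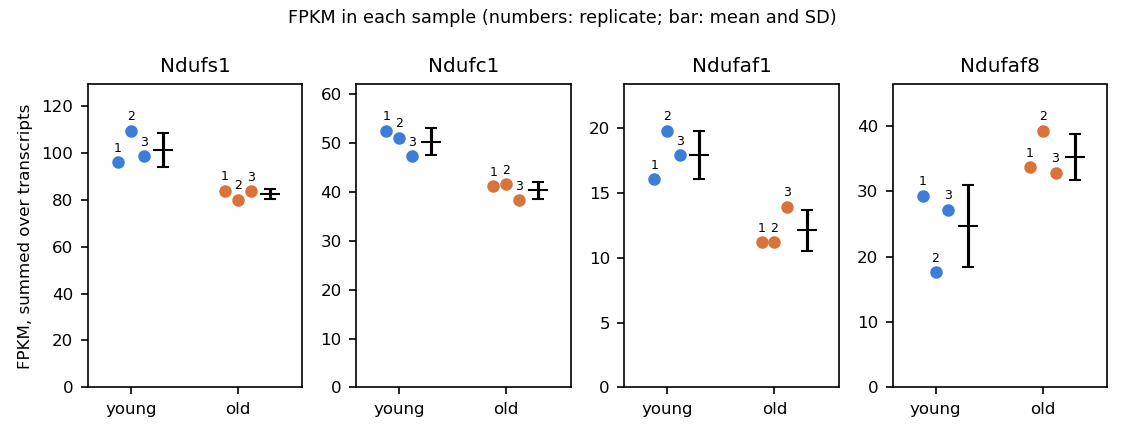
FPKM per gene (y axis, from 0) in each of the 3 young and 3 old samples for the 3 downregulated genes and for Ndufaf8, with replicate numbers above the points and the mean and SD beside them. Old samples of Ndufs1, Ndufc1 and Ndufaf1 lie below all young samples, and old samples of Ndufaf8 lie above them.

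For most members the data also bound the size of a change. In 40 of the 46 genes the 95% interval of the ratio of old to young lay within 1.5-fold in either direction, and in all 46 it lay within 2-fold. The 6 genes with an interval beyond 1.5-fold were Ndufa5, Ndufa4l2, Ndufaf1, Ndufaf5, Ndufaf6 and Ndufaf8. The group means differed by less than 20% in 43 genes, the others being Ndufa4l2, Ndufaf1 and Ndufaf8. The replicates of members varied with a median SD of 0.0939 on the log2 scale, against 0.121 for all genes of at least 10 FPKM. An exact permutation test of 3 samples against 3 cannot give a two-sided p under 0.1, and the 12 genes with groups that did not overlap all reached that value.

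The samples of a group were not equal in their complex I levels. For each subunit, the deviation of a sample from the mean of the 6 samples was taken on the log2 scale, and its median over the 36 subunits was 0.059, 0.049 and -0.013 in young samples 1 to 3 and -0.061, -0.056 and 0.014 in old samples 1 to 3. Young sample 3 and old sample 3 thus lay on the side of the other age group. Young sample 1 was the highest sample for 15 of the 36 subunits and old sample 1 the lowest for 13. Without young sample 3, the median log2 change of the 38 genes with a subunit symbol moved from -0.063 to -0.11. With quantile normalization in place of the deposited scale it was -0.18, and 8 members were downregulated in place of 3. Over all 19465 genes, 814 were downregulated in place of 741. The median over all genes moved from 0.0088 to -0.021 under that scaling. The shift of genes at the level of the members was not examined. The FPKM of all transcripts summed to 576487 to 582760 in young samples and to 591943 to 601724 in old samples. The part of this difference in scale in the complex I values was not tested.

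**Figure D4:**
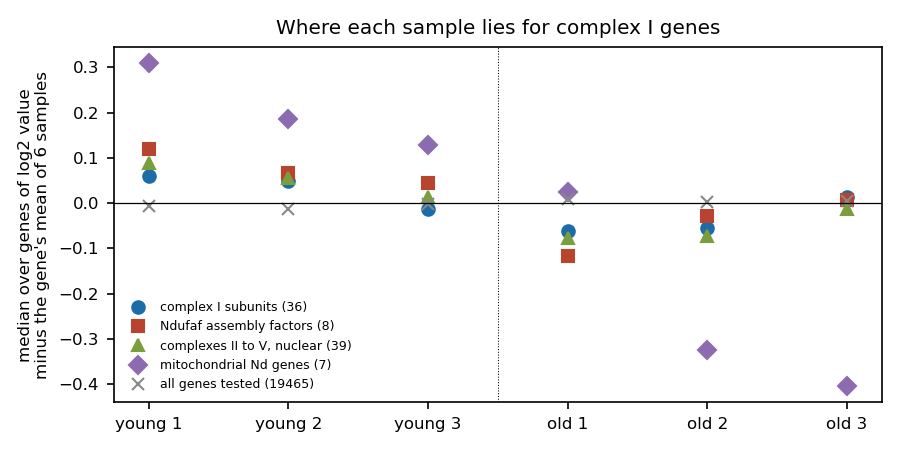
Median over the genes of a list of the log2 value in a sample minus the gene's mean over 6 samples (y axis), for each sample (x axis). Complex I subunits lie at 0.059 and 0.049 in young samples 1 and 2 and at -0.061 and -0.056 in old samples 1 and 2, young sample 3 lies at -0.013 and old sample 3 at 0.014.

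The complex I genes lie among other genes of the respiratory chain in this table. The 7 core subunits of the membrane arm, the Nd genes of mitochondrial DNA, had a median log2 change of -0.44. In limma 4 of the 7 (57.1%) were downregulated, against 3.81% of all genes tested. The largest of these changes was that of mt-Nd3, named after its values were seen, at 1070, 977 and 800 FPKM in the young and 642, 451 and 635 FPKM in the old samples (adjusted p = 0.0374 in limma). mt-Nd4 was at 262, 232 and 256 FPKM in the young and at 195, 152 and 154 FPKM in the old samples, and mt-Nd1 at 1201, 1021 and 1176 FPKM in the young and at 872, 830 and 792 FPKM in the old samples. In mt-Nd4l, mt-Nd5 and mt-Nd6 the groups overlapped, with limma adjusted p of 0.753, 0.419 and 0.456. The median deviation of the 7 genes from their mean over 6 samples was 0.31, 0.19 and 0.13 in young samples 1 to 3. It was 0.024, -0.33 and -0.40 in old samples 1 to 3, so that old sample 1 lay apart from the other old samples. The difference between the mitochondrial Nd genes and the nuclear subunits was not tested.

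Of 39 nuclear subunits of complexes II to V with cytochrome c, 2 (5.13%) were downregulated (Cycs and Cox7b) and 0 were upregulated. In 15 (38.5%) all old samples lay below all young ones, and the median log2 change was -0.085. Of all genes tested, 3.81% were downregulated, 5.65% were upregulated and 16.1% had all old samples below all young ones. Among genes of at least 10 FPKM, 5.02% were downregulated and 18.6% had all old samples below. At an unadjusted p below 0.05 in limma, 13.1% of all genes were lower and 14.6% higher. Cycs, the electron carrier cytochrome c, was at 60.8, 61.7 and 57.7 FPKM in the young and at 43.9, 43.1 and 49.1 FPKM in the old samples (log2 change -0.41, limma adjusted p = 0.0244). Cox7b, a small subunit of complex IV, was at 222, 219 and 196 FPKM in the young and at 174, 172 and 178 FPKM in the old samples (log2 change -0.28, limma adjusted p = 0.0435). Of 10 further assembly factors outside the Nduf family, 0 passed the adjusted threshold in limma, and at an unadjusted p below 0.05 1 was higher and 2 were lower, with a median of -0.096. Ecsit, a partner of Ndufaf1, was at 19.2, 20.8 and 19.3 FPKM in the young and at 14.4, 16.1 and 17.9 FPKM in the old samples (log2 change -0.30, limma adjusted p = 0.110). Aifm1, which takes part in the import of proteins into mitochondria, was at 16.6, 18.5 and 16.6 FPKM in the young and at 14.2, 13.9 and 14.8 FPKM in the old samples (log2 change -0.27, limma adjusted p = 0.0926). The other partners Acad9 and Tmem126b, named here after their values were seen, had log2 changes of -0.28 and -0.25, and their groups overlapped. Of 20 other mitochondrial genes 0 passed the adjusted threshold in limma (unadjusted, 1 higher and 3 lower), with a median of -0.047, and of 7 genes of supercomplexes and the inner membrane 0 passed (unadjusted, 1 higher and 1 lower), with a median of -0.036. In the first of these lists the smallest p belonged to Vdac1, a channel of the outer membrane (225 ± 24.2 against 179 ± 7.09 FPKM, SD, n = 3), and to Esrra, a nuclear receptor that drives mitochondrial genes (61.0 ± 2.75 against 51.0 ± 4.27 FPKM), with limma adjusted p of 0.0602 and 0.0871. In the second list the smallest p belonged to Cox7a1, a complex IV subunit of heart and muscle (283 ± 12.3 against 323 ± 23.8 FPKM), and to Immt, a cristae protein (72.3 ± 9.41 against 60.2 ± 3.61 FPKM), with limma adjusted p of 0.152 and 0.161.

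**Figure D5:**
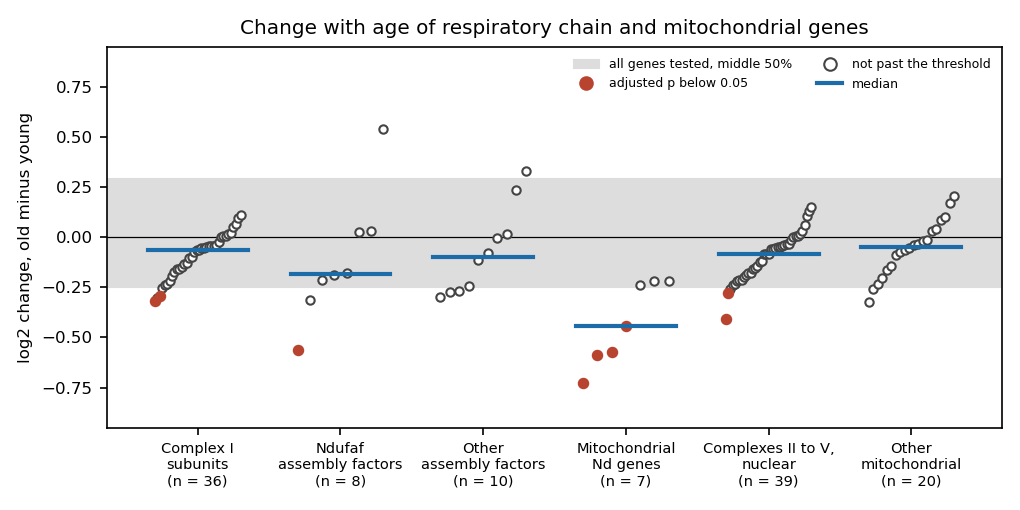
Log2 change from young to old (y axis) of each gene in 6 lists (x axis), with the median of a list as a bar, filled points at an adjusted p below 0.05 and a grey band for the middle 50% of all genes tested. Complex I subunits have a median of -0.063 and mitochondrial Nd genes a median of -0.44 with 4 of 7 points filled.

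Markers of the cells in the tissue also differed between the groups. Of all genes tested in limma, 3.81% were downregulated and 5.65% upregulated. At an unadjusted p below 0.05 these shares were 13.1% and 14.6%. None of the 12 hair cell markers was at 0 in all samples, and 4 of the 12 were downregulated, with summed levels of 797 to 1046 FPKM in young samples and 457 to 519.6 FPKM in old samples. Calb2 alone made up 504 to 838 FPKM of the young sums, and the other 11 markers summed to 208 to 293 FPKM in young samples and 154 to 171 FPKM in old samples. In young samples 1 to 3 Calb2 was at 766, 838 and 504 FPKM, in the order of the neuron marker sums (834, 1039 and 526 FPKM). The other 11 markers ran in the reverse order there (269, 208 and 293 FPKM). Whether Calb2 reports hair cells in this tissue was not tested. The hair cell markers did not all follow their sum, as Myo7a had a log2 change of 0.0018 and Espn one of 0.44. Of the neuron markers 5 of 10, and of the Schwann cell markers 4 of 8, were downregulated, with sums of 526 to 1039 and 871 to 1342 FPKM in young samples and 352 to 384 and 740 to 773 FPKM in old samples. Macrophage markers were upregulated in 9 of 10 cases, with sums of 150 to 229 FPKM in young samples and 795 to 891 FPKM in old samples. Of 8 bone markers 2 were downregulated, with sums of 83.0 to 334 FPKM in young samples and 63.7 to 84.0 FPKM in old samples. In limma 0 of 8 markers of the stria vascularis, 0 of 7 erythroid, 0 of 11 tested muscle markers (of 12) and 0 of 3 tested fat cell markers (of 6) passed the adjusted threshold, and at an unadjusted p below 0.05 1 stria and 1 muscle marker were higher, 1 erythroid marker was lower and 0 fat cell markers passed. The stria sums were 2275 to 2707 FPKM in young and 2399 to 2574 FPKM in old samples, and the erythroid sums 1434 to 2954 and 1369 to 2254 FPKM. The muscle sums were 3.24 to 5.67 FPKM in young and 5.23 to 25.03 FPKM in old samples, highest in old sample 1, and the fat cell sums 0.379 to 2.41 and 0.205 to 1.23 FPKM. Young sample 3, which had the lowest young sum of the 36 subunits, was also the lowest young sample in the neuron and Schwann cell sums and in Calb2, but the highest in the sum of the other 11 hair cell markers. In bulk tissue, fewer cells of a type and less RNA per cell cannot be told apart. The part of these markers in the complex I values was not tested.

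The table lists transcripts, so that transcripts of a gene that differ can be viewed apart. Of 87 complex I transcripts tested, 0 were past the adjusted threshold in limma, where 0.199% of 38764 transcripts were lower and 0.549% were higher. At an unadjusted p below 0.05, 13 were lower and 2 were higher, against 7.98% and 9.05% of all transcripts. In 14 all old samples lay below all young ones and in 4 all lay above, against 11.8% and 12.4%. The smallest adjusted p (limma, 0.0702) was that of an Ndufaf1 transcript of 1308 nt, ENSMUST00000110802, at 8.61, 10.2 and 10.9 FPKM in the young and at 5.53, 4.96 and 6.42 FPKM in the old samples. The other main transcript of Ndufaf1, ENSMUST00000110801, shares its coding sequence and differs in exon 1 (212 nt in place of 42 nt). It was at 7.38, 9.53 and 6.95 FPKM in the young and at 5.66, 6.24 and 7.51 FPKM in the old samples, and the groups overlapped. A test of the difference between these transcripts was not made.

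Ndufv3, a small accessory subunit of the peripheral arm, is known in a short and a long form. The transcript of the short form (493 nt, 3 exons) held 92.9% of the FPKM of the gene, at 208, 192 and 192 FPKM in the young and 193, 224 and 191 FPKM in the old samples. The long form includes another coding exon of 1092 nt (exon 3 of 4, chr17:31527310-31528401, plus strand, GRCm38). Its transcript was at 12.2, 11.2 and 10.6 FPKM in the young and at 14.4, 17.1 and 19.3 FPKM in the old samples, on 170 to 348 fragments. All old samples lay above all young ones, and the log2 change of 0.57 (SE 0.131) did not pass the adjusted threshold (limma adjusted p = 0.0964). The long form made up 5.48%, 5.44% and 5.18% of the gene in young samples and 6.90%, 7.05% and 9.16% in old samples. The forms part where exon 2 ends. The last exon of the short form is also the last exon of the long form, so that only its junction with exon 2 marks the short form. Both junctions are shown 5′ to 3′ from the GENCODE transcripts, with 40 bases of exon 2 in lower case and the first 100 bases of the next exon in capitals, which lie at chr17:31527310-31527409 in the long form and chr17:31531110-31531209 in the short form.
Ndufv3 long: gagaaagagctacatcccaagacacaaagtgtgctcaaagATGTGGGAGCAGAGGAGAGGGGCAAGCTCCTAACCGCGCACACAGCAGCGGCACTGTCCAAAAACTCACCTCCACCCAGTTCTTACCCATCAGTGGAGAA
Ndufv3 short: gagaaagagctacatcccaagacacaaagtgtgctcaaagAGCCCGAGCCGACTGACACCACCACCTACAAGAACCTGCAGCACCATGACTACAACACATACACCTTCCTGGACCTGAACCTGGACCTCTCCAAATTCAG

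Promoter sequences were compared with 3 motifs of factors known to bind promoters of respiratory chain genes, on both strands of windows from 250 bases before to 50 bases after the RefSeq start (GRCm38.p6). Of the 46 genes, 40 matched a window, with 42 windows. The NRF1-like letters GCGCNTGCG occurred in 28.6% of the member windows and in 8.61% of 21263 windows of protein-coding genes (6.31% of all 32851 windows). The YY1-like letters AAGATGGCG occurred in 14.3% against 1.83% (1.40% of all windows), and the ETS-like letters CCGGAAG in 14.3% against 11.6% (8.86% of all windows). The 11 members with an NRF1-like match had a median log2 change of -0.15 and the other 29 with a window one of -0.046, a difference that was not tested. Ndufc1 held a YY1-like match behind its start, and Ndufaf1 an ETS-like match that began 18 bases before the start.

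The bases upstream of the annotated starts are shown 5′ to 3′ for the downregulated genes with a window, Ndufaf1 (chr2:119662835-119663084, minus strand) and Ndufc1 (chr3:51408989-51409205, minus strand). The 2 most abundant genes with an NRF1-like match in front of both the RefSeq and the GENCODE start are set beside them, Ndufs5 (chr4:123718203-123718436, minus strand) and Ndufb4 (chr16:37654454-37654618, minus strand). Capitals mark the motif matches, ETS-like in Ndufaf1 and NRF1-like in Ndufs5 and Ndufb4, and Ndufc1 has none in the stretch shown.
Ndufaf1: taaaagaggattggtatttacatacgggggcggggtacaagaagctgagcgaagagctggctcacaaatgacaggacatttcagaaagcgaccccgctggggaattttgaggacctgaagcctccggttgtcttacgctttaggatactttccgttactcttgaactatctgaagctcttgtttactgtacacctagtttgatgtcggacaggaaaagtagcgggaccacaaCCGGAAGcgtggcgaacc
Ndufc1: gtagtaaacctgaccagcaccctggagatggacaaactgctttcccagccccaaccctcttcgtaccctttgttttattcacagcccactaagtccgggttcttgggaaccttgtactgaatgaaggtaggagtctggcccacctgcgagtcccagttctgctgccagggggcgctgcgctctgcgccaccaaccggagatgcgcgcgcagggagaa
Ndufs5: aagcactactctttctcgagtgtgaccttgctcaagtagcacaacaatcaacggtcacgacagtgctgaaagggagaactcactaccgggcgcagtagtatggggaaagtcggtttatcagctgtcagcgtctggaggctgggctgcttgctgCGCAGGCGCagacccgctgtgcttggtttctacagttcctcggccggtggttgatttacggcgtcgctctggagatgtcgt
Ndufb4: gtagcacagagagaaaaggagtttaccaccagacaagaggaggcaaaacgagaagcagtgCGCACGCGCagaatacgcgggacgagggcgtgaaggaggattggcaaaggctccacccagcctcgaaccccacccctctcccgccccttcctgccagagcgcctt
Ndufs5, a subunit of the proximal arm, was at 273, 245 and 269 FPKM in the young and at 228, 195 and 250.2 FPKM in the old samples (log2 change -0.23, limma adjusted p = 0.182). Ndufb4 was at 126, 123 and 122 FPKM in the young and at 108, 108 and 113 FPKM in the old samples, without overlap (log2 change -0.17, limma adjusted p = 0.0902).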

How the data were processed

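Young (3) and old (3) samples were grouped by the age in their labels. The authors aligned directional paired-end libraries to GRCm38 and computed FPKM per transcript with Cuffdiff 2.1.1; the submitters' processing notes also name CASAVA 1.8, TopHat2 2.0.9 and Cufflinks 2.1.1. The annotation release, the scaling and the strand setting are not given in the sources used here. The deposited FPKM values were not rescaled. Of 55679 Ensembl transcripts in the table, 55275 matched GENCODE M21 and were summed per gene, and 404 unmatched ones were left out. The 992 transcripts assembled by the authors were each kept as a gene of their own. They are among the 25419 genes and, where they passed the filter, among the genes tested.

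Groups were compared with limma 3.58.1 in R 4.3.3 (lmFit, eBayes with trend) on log2(FPKM + 0.1) for 19465 genes with a mean of at least 0.1 FPKM, with age as the only term and Benjamini-Hochberg adjustment over all of them (threshold 0.05). A fold change on this scale understates the change of low genes. Cuffdiff, which the study used, needs reads. Depth was estimated from the steps between low values (92.0% to 93.3% of them within 0.1 of a whole step), and fragment numbers are given only from transcripts of at least 500 nt. Beside counting error, these numbers carry the error of the fitted depth and length and of the split of FPKM between transcripts. The size of that further error was not estimated. The code was tested on simulated data, and Python 3.11.15 was used for tables and plots.

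The members and all lists were chosen with earlier results of these data known. Genes were named by rule: members past the threshold, all core subunits and assembly factors, the most and least abundant and the most changed member of each class, Ndufa4, Ndufa4l2, and the 2 genes with the smallest p in each comparison list. The value of 1 core subunit is not reported here. Ndufb4, Ndufc2, Ndufs5, mt-Nd3, mt-Nd4l, mt-Nd5, mt-Nd6 and single hair cell markers, and the transcripts of Ndufa5, Ndufaf1 and Ndufv3 were added after their values were seen. Samples with the same number did not deviate together (correlations of 0.023, -0.041 and 0.011 over genes), so that the numbers were not taken to pair them.

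Other pseudocounts, filters, scalings, variance models, transcript sets, a replicate block and leaving out each sample were tried.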

Additional observations from a re-analysis of the deposited data

How the results depend on the processing

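Subunits in this section are the 38 genes with a subunit symbol, Ndufa4 and Ndufa4l2 included. The counts of 2 subunits and 1 assembly factor downregulated were the same with pseudocounts of 0.01 and 1, a mean of at least 1 FPKM, median-of-ratios scaling, sample weights, protein-coding transcripts only, transcripts of at least 400 nt and adjustment over protein-coding genes. Without a filter, 1 subunit and 0 assembly factors passed (Ndufaf1 -0.56 and Ndufs1 -0.29 had adjusted p of 0.0504 and 0.0528 in limma). Without a variance trend 0 and 0 passed, and 410 genes passed in place of 1840. With the replicate number as a block 0 and 0 members passed, and 730 genes. With quantile normalization 7 subunits passed, Ndufa4 among them, with a median of -0.18, and 1737 genes passed in all. The values of Ndufa3 (-0.042), Ndufa7 (-0.0041), Ndufb11 (-0.045), Ndufb3 (-0.090) and Ndufs7 (-0.082) were then below 0. Ndufb3 was at -0.0049 with median-of-ratios scaling. With the most abundant transcript 1 subunit passed, and at an unadjusted p 7 subunits were lower and 1 assembly factor higher.

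Leaving out 1 sample gave 0 to 1 subunits and 0 assembly factors downregulated, and 62 genes (without old sample 2) to 1771 genes (without young sample 3) in all. The median log2 change lay between -0.11 and -0.054 for subunits and between -0.19 and -0.11 for assembly factors. Of genes near 0, the sign turned in at least 1 of these fits for Ndufa1 (-0.11 to 0.0015), Ndufa11 (-0.13 to 0.045), Ndufa3 (-0.0064 to 0.18), Ndufaf3 (-0.097 to 0.18), Ndufaf7 (-0.069 to 0.091), Ndufb3 (-0.035 to 0.068), Ndufs3 (-0.090 to 0.040), Ndufs7 (-0.0054 to 0.028) and Ndufs8 (-0.13 to 0.080). The cause of these shifts was not tested. Of the members with an estimate, Ndufa4l2 and Ndufaf6 rest on the fewest fragments.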
